A study of Mus musculus with 5 samples.

Results

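The genes described here are 7 whose mRNA is widely read as a record of recent or past signalling through the T-cell receptor (TCR): Egr1, Egr2 and Egr3, Nr4a1, Nr4a2 and Nr4a3, and Cd5. They were found on the arrays as every non-control probe whose RefSeq transcript belongs to one of these symbols, which gave 8 probes for 7 genes among the 20022 genes and 55681 probes of the design. The samples were natural killer T (NKT) cells, a T-cell lineage whose receptors see lipid antigens on CD1d. They came from the thymus of mice lacking interleukin-15 (IL15ko, genotype IL15-/-, 2 arrays) and of wild-type mice (3 arrays), all on the C57BL/6 background. The labels give no age or sex. Each array held Cy3-labelled total RNA of CD3e-positive, CD1d-tetramer-positive cells sorted from 10 pooled thymi after T-cell enrichment, and was read in 1 colour on an Agilent gene expression array. A pool is 1 sample, so differences between single animals are not seen, and the deletion is in the whole animal, not in NKT cells alone.

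When a TCR is engaged, ERK, calcium and calcineurin signals induce the Egr and Nr4a genes within a short time as part of the immediate-early response. The Egr proteins are zinc-finger transcription factors, and Egr2 and Egr3 are needed for NKT cells to develop in the thymus. The Nr4a proteins are orphan nuclear receptors, and Nr4a1 (Nur77) transcription is used as a reporter of TCR signal strength in mice. Cd5 encodes a surface protein that dampens TCR signalling and whose amount on thymocytes is set by the strength of the signals received during selection, so it records signalling over a longer time than the immediate-early genes.

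Of the 5 members that could be tested, only Cd5 passed the threshold. Its mRNA was 1.58-fold higher in IL15ko than in wild-type NKT cells. Over all genes tested, 7.33% passed the same threshold in either direction. The Cd5 call was kept in 5 of 17 alternative settings and was lost whichever array was left out. Nr4a1 had the largest difference among the tested members, 3.34-fold higher in IL15ko. Its 2 IL15ko arrays lay far apart, and its adjusted p of 0.0746 (limma, Benjamini-Hochberg) missed the threshold of 0.05. Egr1 and Egr2 had log2 differences under 0.40 that did not pass, Nr4a2 was close to background with an unsettled direction, and Egr3 and Nr4a3 stayed in the background on all 5 arrays.

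Signal and background set what can be said of each member. A share of 45.2% of probes cleared the background on IL15ko 1 and 33.9% on IL15ko 2, the dimmest array, against 44.6% to 49.6% on the wild-type arrays. The lowest processed signal still well above background lay between 12.3 and 15.9 units on the 5 arrays. No member probe was saturated. Values below are log2 of the processed signal minus the array's 75th percentile, so that 0 is the 75th percentile of the probes measured on all 5 arrays. The brightness of a probe depends on its sequence, so values are compared between arrays for 1 probe and not between genes. In sorted bulk cells, a lower level cannot be told apart from fewer cells that make the mRNA.

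**Figure D1:**
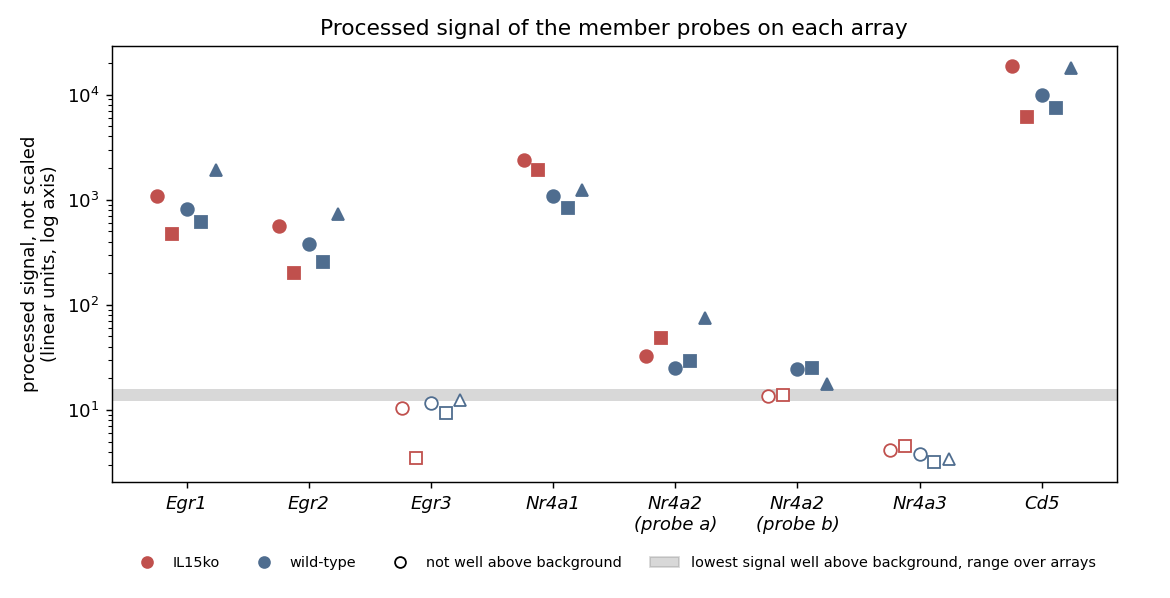
Processed signal (linear units before scaling, on a log axis) of the 8 member probes on each array, with IL15ko arrays left of wild-type arrays; circles, squares and triangles stand for replicates 1, 2 and 3. Open symbols are spots or probes not well above background, and the grey band spans the lowest signals well above background, 12.3 to 15.9 units; Egr3 and Nr4a3 lie below or within it on all 5 arrays, while Egr1, Egr2, Nr4a1 and Cd5 lie far above it.

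Egr1, the founding member of its family (probe A_51_P367866), had processed signals of 1083 and 468 units on IL15ko arrays 1 and 2, against 818, 612 and 1898 units on wild-type arrays 1 to 3. After scaling these were -0.32 and 0.09 in IL15ko and -0.48, -0.53 and -0.04 in wild-type cells on the log2 scale. The groups overlapped, because wild-type 3 lay between the IL15ko arrays. The means were -0.12 ± 0.29 (SD, n = 2) in IL15ko and -0.35 ± 0.27 (SD, n = 3) in wild-type cells. The log2 difference of 0.24 ± 0.22 (SE) had a 95% confidence interval of -0.33 to 0.80 and a limma adjusted p of 0.524. The interval holds differences of either sign, so Egr1 cannot be called equal in both groups. Without IL15ko 2 the log2 difference was 0.03.

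Egr2, the member with the best known role in NKT development (probe A_55_P2033362), had normalized log2 signals of -1.26 and -1.15 in IL15ko, against -1.60, -1.78 and -1.42 in wild-type cells. Both IL15ko arrays were above all wild-type arrays, although the gap between IL15ko 1 and wild-type 3 was small. The group means were -1.20 ± 0.08 (SD, n = 2) in IL15ko and -1.60 ± 0.18 (SD, n = 3) in wild-type cells. The log2 difference was 0.39 ± 0.16 (SE), with a 95% confidence interval of -0.00 to 0.79, and did not pass (limma adjusted p = 0.186). Groups that do not overlap were common here, at 47.2% of 11990 genes with a value on every array (25.1% with IL15ko higher and 22.1% with IL15ko lower), so separation alone does not set Egr2 apart.

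Egr3, the close relative that shares work with Egr2 in NKT development (probe A_55_P2032412), gave no signal well above background. Its processed signals were 10.4 and 3.46 units in IL15ko and 11.7, 9.39 and 12.4 units in wild-type cells, all under the lowest signal called well above background on the same array. No fold can be given. This says that the probe did not measure Egr3 here, not that the cells lack it.

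Nr4a1 (probe A_51_P239654) showed the widest gap between the groups among the members. Its processed signals were 2384 and 1909 units in IL15ko and 1079, 838 and 1239 units in wild-type cells, so both IL15ko arrays were the brighter ones even before scaling, including the array that was dimmest overall. The normalized log2 signals were 0.82 and 2.12 in IL15ko, against -0.08, -0.08 and -0.66 in wild-type cells. The groups did not overlap, and IL15ko 2 lay well above IL15ko 1. The means were 1.47 ± 0.92 (SD, n = 2) in IL15ko and -0.27 ± 0.34 (SD, n = 3) in wild-type cells. The log2 difference was 1.74 ± 0.43 (SE), that is 3.34-fold with a 95% confidence interval of 1.58-fold to 7.06-fold. Of the 11997 genes tested, it ranked 75 by size of rise, but only 1371 by p. The log2 difference was 2.39 without IL15ko 1 and 1.09 without IL15ko 2 (limma adjusted p = 0.0514 and 0.185). It was positive in 17 of 17 alternative settings and passed the threshold in 3 of them.

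Nr4a2 (Nurr1), a relative of Nr4a1, has 2 probes that gave different pictures, both near background. The brighter probe, A_52_P494622, was well above background on all 5 arrays, with processed signals of 32.9 and 48.4 units in IL15ko and 25.2, 29.4 and 74.3 units in wild-type cells. Its normalized log2 signals were -5.36 and -3.18 in IL15ko, against -5.50, -4.91 and -4.72 in wild-type cells. The IL15ko arrays lay on either side of 2 of the wild-type arrays. The log2 difference was 0.77 ± 0.66 (SE), with a 95% confidence interval of -0.91 to 2.45 and a limma adjusted p of 0.485. Without IL15ko 2 it was -0.32, so the direction rests on that array.

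The other Nr4a2 probe, A_55_P1983508, was well above background on the 3 wild-type arrays (24.8, 25.3 and 17.8 units) and on neither IL15ko array (13.5 and 13.9 units). After scaling, the IL15ko values of -6.64 and -4.98 spanned most of the wild-type range of -6.78 to -5.13. The log2 difference of this probe, fitted with all measured probes, was -0.00 ± 0.69 (SE) with a limma adjusted p of 0.999. No fold is given for it, because the bound against the lowest measurable signal was under 1.

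Nr4a3 (Nor1), the third relative, has 1 probe (A_51_P128397) printed in 10 spots on each array. After outlier spots were left out, its mean signals were 4.18 and 4.52 units in IL15ko and 3.83, 3.17 and 3.42 units in wild-type cells. None of its spots cleared the background, so Nr4a3 was not measurable at this sensitivity.

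Cd5 (probe A_51_P167263) was bright on every array, with processed signals of 18807 and 6117 units in IL15ko and 9908, 7486 and 18068 units in wild-type cells. Before scaling, the groups overlapped. After scaling, the 2 IL15ko arrays gave nearly the same value, 3.80 and 3.80, against 3.12, 3.08 and 3.21 in wild-type cells. Both IL15ko arrays were above all wild-type arrays. The means were 3.80 ± 0.00079 (SD, n = 2) in IL15ko and 3.14 ± 0.065 (SD, n = 3) in wild-type cells. The log2 difference was 0.66 ± 0.12 (SE), that is 1.58-fold with a 95% confidence interval of 1.28-fold to 1.96-fold and a limma adjusted p of 0.0398.

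The call of Cd5 is 1 of 5 tested members, where 7.33% of all tested genes were called in either direction 3.75% higher and 3.58% lower. The Cd5 difference lay between 0.61 and 0.73 on the log2 scale over 17 alternative settings, and the call was kept in 5 of them. Leaving out any 1 of the 5 arrays ended it, with limma adjusted p of 0.188, 0.166 and 0.0523 without wild-type 1, 2 and 3, and 0.0855 and 0.131 without IL15ko 1 and 2. An exact two-sided permutation test of 1 gene over 2 against 3 arrays cannot give a p below 0.1.

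**Figure D2:**
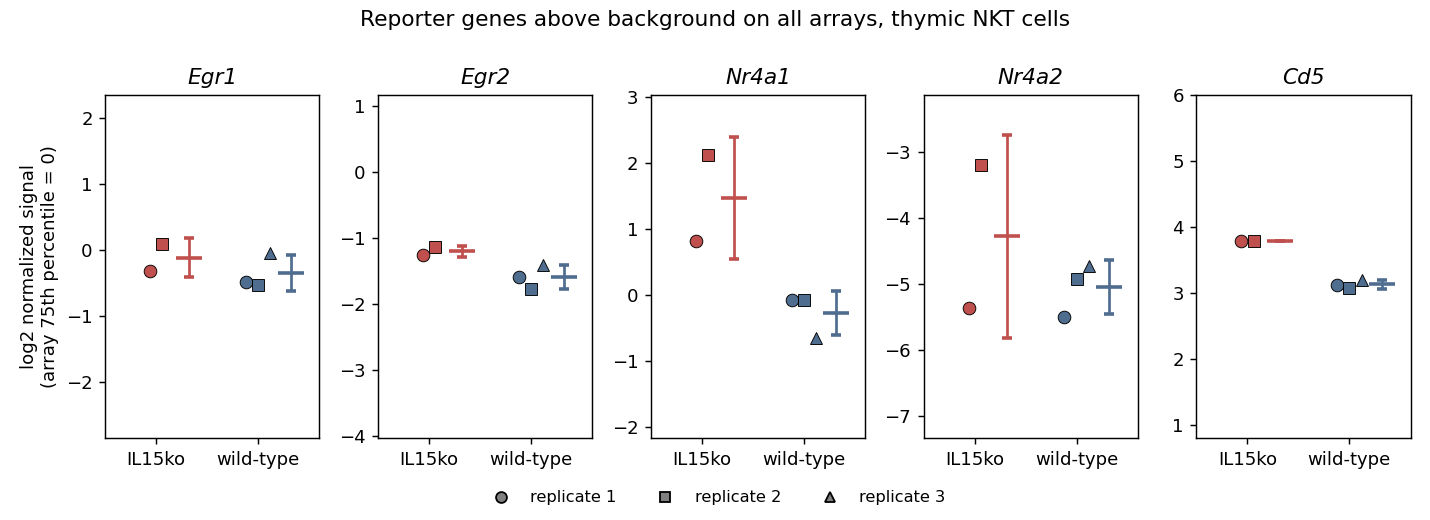
Normalized log2 signal of the 5 members well above background on all arrays, with IL15ko (red) left of wild-type (blue); symbols are single arrays, and bars are the mean and SD (n = 2 and n = 3). Each panel spans the same number of log2 units, so the distances can be compared: Cd5 is 3.80 on both IL15ko arrays against 3.08 to 3.21 in wild-type cells, while Nr4a1 and Nr4a2 differ between the 2 IL15ko arrays.

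**Figure D3:**
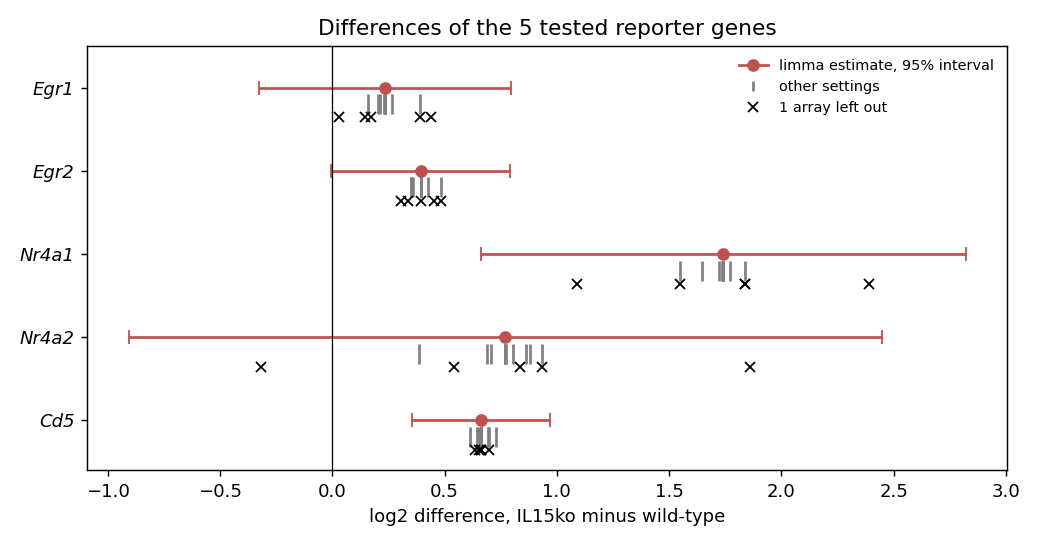
Log2 difference (IL15ko minus wild-type) of the 5 tested members with limma's 95% confidence interval (red), the estimates under other processing settings (grey bars) and with 1 array left out (crosses). Intervals of Nr4a1 (0.66 to 2.82) and Cd5 (0.36 to 0.97) lie above 0, those of Egr1, Egr2 and Nr4a2 reach 0 or below, and Nr4a2 is the one gene with an estimate under 0, at -0.32.

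Start regions of the members were examined for elements through which TCR signals are known to act: cyclic-AMP response elements bound by CREB and ATF factors, whose core is CGTCA, and CArG boxes bound by serum response factor, which carry ERK signals to Egr genes. RefSeq start regions (mouse assembly GRCm38.p6) were matched for 5 of the 7 members, namely Egr2, Nr4a1, Nr4a2, Nr4a3 and Cd5, and those of Egr1 and Egr3 were not examined. The 250 bases before the annotated start are shown for the 3 Nr4a genes, which share a feature, and for Egr2, the Egr gene that was examined. Capitals mark CGTCA, or TGACG on the other strand, and in Egr2 also the CArG box.
Nr4a1, chr15:101266596-101266845, + strand: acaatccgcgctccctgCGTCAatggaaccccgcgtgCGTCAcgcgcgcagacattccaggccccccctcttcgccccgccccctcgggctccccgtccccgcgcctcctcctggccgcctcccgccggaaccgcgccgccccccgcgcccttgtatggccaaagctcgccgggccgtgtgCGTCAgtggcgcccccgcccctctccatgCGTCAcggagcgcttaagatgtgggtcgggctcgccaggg
Nr4a2, chr2:57124004-57124253, - strand: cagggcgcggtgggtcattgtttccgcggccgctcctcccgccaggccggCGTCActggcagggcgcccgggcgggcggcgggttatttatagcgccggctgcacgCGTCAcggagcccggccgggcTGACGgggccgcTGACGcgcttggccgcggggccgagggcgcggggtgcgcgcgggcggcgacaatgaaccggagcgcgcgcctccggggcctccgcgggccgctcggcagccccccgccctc
Nr4a3, chr4:48045055-48045304, + strand: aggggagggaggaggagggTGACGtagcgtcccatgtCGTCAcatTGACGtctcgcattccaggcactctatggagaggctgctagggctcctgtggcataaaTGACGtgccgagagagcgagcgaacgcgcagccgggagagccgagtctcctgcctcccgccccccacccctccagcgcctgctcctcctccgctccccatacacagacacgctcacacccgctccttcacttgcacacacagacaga
Egr2, chr10:67537619-67537868, + strand: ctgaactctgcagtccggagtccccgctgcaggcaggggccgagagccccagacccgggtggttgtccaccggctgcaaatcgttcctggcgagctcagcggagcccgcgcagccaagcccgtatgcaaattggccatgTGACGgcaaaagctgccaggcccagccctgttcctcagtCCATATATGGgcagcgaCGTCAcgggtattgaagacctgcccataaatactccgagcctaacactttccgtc

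Each of the 3 Nr4a regions held 4 CGTCA cores, counted on both strands. Of 32851 start regions of the same length, 17.8% held at least 1 and 0.137% held 4 or more. In Nr4a1 all 4 cores stood in the longer form TGCGTCA, at 235, 215, 71 and 42 bases before the start, and it was the 1 region of 32851 with 3 or more of this form, which 1.75% of regions held at least once. In Nr4a2 and Nr4a3 the form TGCGTCA was not found. The full element TGACGTCA, held by 1.55% of regions, was in none of the member regions.

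Egr2 has 5 annotated start regions. The one shown held a CArG box at 72 bases and CGTCA cores at 111 and 55 bases before the start, and 1.47% of all regions hold a CArG box. Of the other 4 regions, the 2 that overlap it held the same elements, 1 held a CArG box without a CGTCA core and 1 held neither. The Cd5 region held neither element. The Egr binding sequence GCGTGGGCG (0.536% of all regions) and the Nr4a binding sequence AAAGGTCA (1.34%) were in none of the member regions shown or counted. These are matches of letters and say nothing on whether a factor binds.

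The genes whose profiles were most like the members' over the 5 arrays were found by the root mean square difference between log2 profiles, each centred on its own mean, among 9759 other genes measured on all arrays. Nearest to Egr1 were Taf3 (0.026 log2 units), Arih1 (0.034) and Hectd3 (0.041), and nearest to Cd5 were Ddx1 (0.019), Rnf43 (0.024) and Tedc2 (0.026). Nr4a1 had no such close match: its nearest genes, Hic2, Lrrc17 and Cacna1h, differed by 0.249, 0.26 and 0.272. Among the members themselves, Egr2 ranked 323 of 9759 genes in likeness to Egr1 (0.144), and 671 of 9759 in likeness to Cd5 (0.156). Nr4a1 was far from Egr1 (rank 9567, 0.876) and from Cd5 (rank 9174, 0.715). Ranked from Nr4a1, which had no close match, the same distances placed Egr1 at 3140 and Cd5 at 1146 of 9759. In that ranking Nr4a2 stood at 1042 (0.699) and Egr2 at 2296 (0.822). The measure also counts the size of a change, which was larger in Nr4a1. These are descriptions over 5 arrays, with no test.

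The regulators and partners of the Egr and Nr4a factors did not pass the test. Of 18 tested genes out of 20 listed, limma called 0 in either direction, against 7.33% of all genes tested. At an unadjusted limma p under 0.05 stood 6 of the 18, against 3299 of all 11997 genes. The median log2 difference was -0.12, against 0.01 over all genes tested. The one with the smallest p was Cabin1, a calcineurin-binding repressor of Mef2 factors, with values of -0.25 and 0.33 in IL15ko and -0.89 to -0.78 in wild-type cells (log2 difference 0.86 ± 0.20 SE, adjusted p = 0.0694). Ppp3cc, a calcineurin catalytic subunit, had a log2 difference of -1.09 ± 0.26 (adjusted p = 0.0726). Hdac7, a histone deacetylase that represses Nr4a1 in thymocytes, had one of -0.42 (adjusted p = 0.127) and Nfatc1, a calcineurin-dependent factor, one of -0.52 (adjusted p = 0.14). Nab2, which binds Egr proteins and represses them, averaged 1.51 ± 0.12 (SD, n = 2) in IL15ko and 1.61 ± 0.04 (SD, n = 3) in wild-type cells. Egr4, the remaining family member, cleared the background on 1 IL15ko array and on no wild-type array.

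Genes known as targets of Egr or Nr4a factors in T cells changed in both directions. Of 14 tested, limma called 3 higher and 2 lower, with a median log2 difference of 0.02. An unadjusted limma p under 0.05 was reached by 10 of the 14, against 3299 of all 11997 genes. Zbtb16, which encodes PLZF and is a target of Egr2 in NKT cells, was 3.01 and 3.28 in IL15ko, against 1.74, 1.73 and 1.46 in wild-type cells (2.83-fold higher, adjusted p = 0.0161). Pdcd1, which encodes the inhibitory receptor PD-1, was 1.96-fold higher (adjusted p = 0.0216), and Tox, a nuclear factor induced by calcineurin, 1.99-fold higher (adjusted p = 0.0435). Fasl, whose product triggers cell death through Fas, was -2.00 and -1.14 in IL15ko, against 0.75, 0.64 and 0.67 in wild-type cells (4.79-fold lower, adjusted p = 0.0174). Id2, an inhibitor of E proteins, was 1.74-fold lower (adjusted p = 0.0313). The list was put together with earlier results of these data known, Zbtb16, Fasl and Id2 among them. Its 5 calls of 14 are thus not independent evidence beside the 7.33% over all genes, nor are its 10 at the unadjusted p.

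Of the genes that, like Cd5, dampen TCR signals, limma called 1 of 24 tested higher and 2 lower, against 7.33% of all genes in either direction, with a median log2 difference of -0.13. An unadjusted limma p under 0.05 was reached by 11 of the 24, against 3299 of all 11997 genes. Ubash3a, a suppressor of TCR signalling, was -5.26 and -5.34 in IL15ko, against -3.24, -3.20 and -3.23 in wild-type cells (adjusted p = 0.0059). Only 1 IL15ko array measured it above background, so no fold is given. Ptpn22, a phosphatase acting on Lck and Zap70, was 1.99-fold lower (adjusted p = 0.0273), and Pdcd1 has been given. Dgkz, a diacylglycerol kinase, had a log2 difference of 1.04 ± 0.21 and just missed the threshold (adjusted p = 0.051). Cd6, the structural relative of Cd5 in the same receptor family, averaged 3.44 ± 0.16 (SD, n = 2) in IL15ko and 3.44 ± 0.13 (SD, n = 3) in wild-type cells, with a log2 difference of 0.00 ± 0.15 (adjusted p = 0.993).

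The TCR complex and its proximal kinases and adaptors gave 1 called gene. Of 19 tested, limma called 0 higher and 1 lower, against 3.75% and 3.58% of all genes. At an unadjusted limma p under 0.05 stood 3 of the 19, against 3299 of all 11997 genes. The median log2 difference was -0.24. The called gene was Malt1, a protease that links the TCR to NF-kB, at -1.56 and -1.47 in IL15ko, against -0.35, -0.46 and -0.45 in wild-type cells (2.14-fold lower, adjusted p = 0.0164). Lat, an adaptor, had a log2 difference of 0.46 (adjusted p = 0.0986).

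Other genes that TCR signals induce included calls in both directions. Of 19 tested, limma called 2 higher and 2 lower, against 3.75% and 3.58% of all genes, with a median log2 difference of -0.35. An unadjusted limma p under 0.05 was reached by 7 of the 19, against 3299 of all 11997 genes. Irf4, a factor induced in proportion to TCR signal strength, was -1.45 on both IL15ko arrays, against -3.22, -3.08 and -3.17 in wild-type cells (3.25-fold higher, adjusted p = 0.00784). Icos, a costimulatory receptor gene, was 1.96-fold higher (adjusted p = 0.0177). Cd69, an early activation marker, was -4.08 and -3.10 in IL15ko, against -1.95, -1.89 and -1.86 in wild-type cells (3.22-fold lower, adjusted p = 0.0375). Dusp6, a phosphatase of ERK, was 2.61-fold lower (adjusted p = 0.0109). Cd69 and Dusp6 thus moved the opposite way to Irf4 and Icos.

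**Figure D4:**
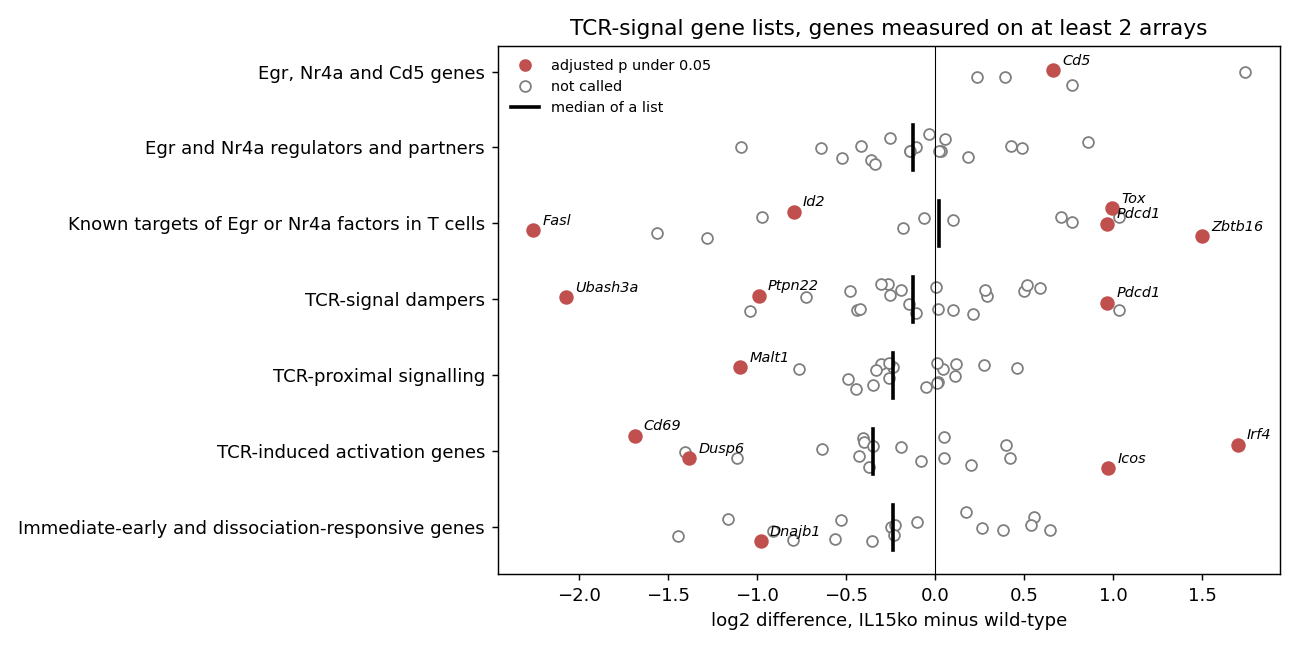
Log2 difference (IL15ko minus wild-type) of each tested gene, in rows for the members and the 6 lists; filled symbols passed a limma adjusted p of 0.05 and are named, open symbols did not, and black bars are list medians, which run from -0.35 to 0.02. Vertical scatter within a row carries no value, and called genes stand on both sides of 0 in the target, damper and activation rows.

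Egr1 and Nr4a1 can also be induced while tissue is taken apart and cells are sorted, so immediate-early and heat-shock genes were read on the same arrays. Of 18 tested, limma called 0 higher and 1 lower, against 3.75% and 3.58% of all genes. At an unadjusted limma p under 0.05 stood 5 of the 18, against 3299 of all 11997 genes. The median log2 difference was -0.24. The called gene was Dnajb1, a heat-shock co-chaperone, 1.97-fold lower in IL15ko (adjusted p = 0.0227). Ier5 had a log2 difference of -1.44 (adjusted p = 0.0611), Ier3 one of 0.55 (adjusted p = 0.136) and Hsph1 one of 0.54 (adjusted p = 0.163). Fos was -3.99 and -2.66 in IL15ko, against -3.18, -3.35 and -2.75 in wild-type cells, and Jun was 0.20 and 1.30 in IL15ko, against 1.12, 1.26 and 1.47 in wild-type cells. In both AP-1 genes IL15ko 2 stood above IL15ko 1, as it did in Nr4a1 and Nr4a2, and the part of handling in the spread between these arrays was not tested.

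Marker genes of other cells were read beside the members. All 6 T- and NKT-cell markers were well above background on all arrays, and their summed normalized signal was 77.1 and 70.3 in IL15ko, against 75.6, 79.1 and 75.3 in wild-type cells. Of 24 markers of double-positive thymocytes, B cells, macrophages and dendritic cells, and thymic epithelium, 7 were well above background on any array and 3 on all. Their summed signals were 0.364 and 0.458 in IL15ko, against 0.768, 1.12 and 0.537 in wild-type cells. Such sums mostly follow their brightest probes. The macrophage and dendritic cell markers alone gave 0.185 and 0.127 in IL15ko, against 0.487, 0.836 and 0.418 in wild-type cells. The defining genes Rag1, Rag2, Cd8a, Lyz2 and Foxn1 did not clear the background on any array, while Dntt, Cd79b and Csf1r did so on all 5. Csf1r, a macrophage receptor gene, had a log2 difference of -2.29 (limma adjusted p = 0.0508), Cd79b, of the B-cell receptor, one of 0.92 (adjusted p = 0.0881) and Dntt, which thymocytes use to diversify their receptors, one of 0.08 (adjusted p = 0.959), and the part of such cells in the members' values was not tested. Of 6 NK-cell markers, 4 were tested and all 4 were called lower in IL15ko, against 3.58% of all genes tested. Among the 4, Klrk1 cleared the background on no IL15ko array. It passed the filter through the wild-type arrays alone, so its call rests on IL15ko values in the background. The summed signal of the 6 was 2.94 and 4.24 in IL15ko, against 17.8, 17.1 and 18.2 in wild-type cells. Of the markers not tested, Ncr1 did not clear the background on any array, and Eomes cleared it on 1 wild-type array. NKT cells of the interferon-gamma-producing subset also carry NK receptors, and the part of a shift in subsets in the values of Cd5 and Nr4a1 was not tested.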

How the data were processed

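NKT cells were measured on 2 IL15ko and 3 wild-type arrays, each with RNA from 10 pooled thymi. The deposited files hold linear intensities, per the file headers from Agilent Feature Extraction 10.7.1.1, which subtracts background and a spatial trend inside each array to give the processed signal. The 0 or 1 flags on outliers and background come from the same files. The authors' deposited value table was compared with the spot values on bright spots, 2829 to 7592 per array. There its intensities equalled spot median minus local background plus a constant per array. Dim spots were not compared. The submitters' processing notes also name limma, without settings.

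Outlier spots were left out and spots of a probe averaged on the log2 scale. Signals were scaled to each array's 75th percentile over 18519 probes that cleared the background everywhere. Accessions were matched to NCBI's annotation of GRCm38.p6 (26425 of 55681 probes named; the headers name build mm9, so the only coordinates given are those of the RefSeq start regions, in GRCm38.p6). The brightest probe stood for a gene, and the 11997 genes whose probe cleared the background on 2 or more arrays were compared by limma 3.58.1 in R 4.3.3, adjusted over all genes. The fit had 3 residual degrees of freedom. The labels do not say that replicates came from separate pools, so the spread behind the p-values may be technical. Robust SDs of log2 differences were 0.155 between wild-type 1 and 2 and 0.365 to 0.393 between the other wild-type pairs. The normexp alternative used the spot median, as the files hold no spot mean. The fit was also run on simulated independent arrays with variances drawn from its own fitted prior. Such a run checks the code, not the p-values on these arrays.

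The members and lists were chosen with earlier results of these data known. The text names every member, up to 4 genes per list by smallest p, any gene needed to describe a count, and the 3 nearest profiles of Egr1, Nr4a1 and Cd5. Nab2, Egr4, Cd6, Fos and Jun were chosen after their values were seen, and a few genes that the rule names are not reported here.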

Additional observations from a re-analysis of the deposited data

How the results depend on the processing

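All 17 alternatives kept the direction of Egr1, Egr2, Nr4a1 and Cd5. In Egr2, Nr4a1 and Cd5 the groups did not overlap, so leaving out an array could not turn the direction. The log2 difference of Nr4a2 ran from -0.32 without IL15ko 2 to 1.86 without IL15ko 1. The call of Cd5 was lost with normexp (log2 difference 0.61), the percentile over all probes (0.69), median centring (0.66), no filter on dim probes (0.66), a fit over all measured probes (0.66), wild-type 1 and 2 averaged (0.64) and each array left out (0.63 to 0.70). Nr4a1 was called with the percentile over all probes (1.77), with only probes measured on all arrays (1.74) and with a trended, robust prior (1.74). The number of genes called, 879 in the main setting, was 1 with normexp (1960 at an unadjusted p under 0.05), 3 without the filter, 1515 with the trended prior, 101 with wild-type 1 and 2 averaged and 9 to 784 with 1 array left out (336 and 192 on omitting IL15ko 1 or 2, and 9, 105 and 784 on omitting wild-type 1, 2 or 3). With normexp limma called 0 genes of each list, against 3 to 8 per list at an unadjusted p under 0.05. With 1 array left out, calls were 0 to 1 among regulators, 0 to 3 among targets, 0 to 3 among dampers, 0 to 1 in proximal signalling, 0 to 4 among activation genes and 0 to 1 among immediate-early genes. The causes were not tested.

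With the replicate number as a block, the log2 difference of Cd5 was 0.70 (adjusted p = 0.0954), 379 genes were called, and limma called 2 targets, 1 damper, 0 proximal genes, 2 activation genes and 0 immediate-early genes (1 proximal and 4 immediate-early genes at an unadjusted p under 0.05). Nothing in the labels says that equal numbers pair samples, and deviations of equal numbers correlated at -0.143 and 0.32. Faint signal limits Egr3, Nr4a2 and Nr4a3.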
